A study of Mus musculus with 2 samples.

Results

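The 39 genes described here carry out glycolysis, the storage and breakdown of glycogen, the handling of lactate and the steps that feed into them. They were chosen by name as enzymes, transporters and regulators of these pathways, by a rule that uses no measured value. Earlier results of these data were known when the genes were chosen. All 39 had a row in the table of 35163 genes, and 34 of the 39 reached 500 summed counts in the cells compared below. The question was how these genes differed between fast 2X and fast 2A myofibers, and whether pairs of genes for the same step changed places.

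Single myofibers were isolated by large-particle sorting from the FDB (flexor digitorum brevis), which lies in the sole and holds mostly fast fibres, of untreated mice over 3 months of age. The labels give the strain as C57BL/6J, while the study's methods name males of both C57BL/6J and DBA2. Their RNA was counted by mcSCRB-seq, a plate-based method in which every captured molecule carries a random tag, so that each count stands for 1 molecule and not for its amplified copies. The 763 cells lay on 8 plates, sequenced on 2 lanes that shared 0 of the 763 cell barcodes, and comprised digested whole myofibers and 93 fragments cut from the muscle. The sources do not tie cells to animals, so all cells are counted as 1 sample, cells are not replicates and no p-value is given.

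With the study's filters of more than 5000 genes and under 20% mitochondrial counts, 171 cells remained, with 28827 to 1542996 counts each. Each cell was assigned to the fibre class of its largest myosin heavy chain gene, the motor protein by which fibres are typed. By this rule 117 cells were fast 2X (Myh1 largest, 39180010 summed counts) and 51 were fast 2A (Myh2 largest, 11907400 summed counts). Another 2 were slow (Myh7) and 1 was fast 2B (Myh4). Of these, 3 fast 2X cells and 0 fast 2A cells were cut fragments. Median counts were 255726 in the fast 2X cells and 206510 in the fast 2A cells, and median mitochondrial shares were 5.01% and 6.96%. Levels are counts per 1000000 gene counts of a class (CPM). All limits are 95% limits and cover counting error only, and the range over 7 plates with at least 3 cells of each class shows how far a difference moved between plates.

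In glycolysis, glucose is phosphorylated by hexokinase, split into smaller sugars by aldolase and turned into pyruvate, with a net gain of ATP that needs no oxygen. Muscle holds its own glucose store as glycogen, which phosphorylase breaks down when phosphorylase kinase switches it on and which glycogen synthase builds. Pyruvate and lactate are exchanged by lactate dehydrogenase, a tetramer of subunits encoded by Ldha, which is typical of fast glycolytic muscle, and Ldhb, which is typical of heart and oxidative muscle. Fast 2X fibres are known as more glycolytic and fast 2A fibres as more oxidative.

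Of the 34 genes with enough counts, 2 were at least 1.5-fold higher in fast 2A cells and 9 were at least 1.5-fold lower, while 23 differed by less. Of all 8741 genes with enough counts, 2.57% were higher and 7.44% lower by that fold. The 2 higher genes were Ldhb and the glycogen synthase gene Gys1. The 9 lower genes were Ldha, the triose phosphate isomerase gene Tpi1, the phosphorylase kinase subunit genes Phka1 and Phkb, the lactate exporter gene Slc16a3, both glycerol phosphate dehydrogenase genes Gpd1 and Gpd2, and the regulators Pfkfb3 and Pfkfb4. At 2-fold, 1 gene was higher (Ldhb) and 4 were lower (Phka1, Phkb, Gpd1 and Gpd2), against 0.789% and 1.75% of all genes. All 11 genes past 1.5-fold had the same sign in each of the 7 plates, as did 16 of all 34. The 11 were picked by the pooled cells of these same plates, so this describes spread and is no separate support.

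The median log2 ratio of the 34 genes, fast 2A over fast 2X, was -0.29, compared with -0.094 over all 8741 genes. Of the 34, 26 (76.5%) were below 0 and 8 above, compared with 63.1% of all 8741 genes below 0. Scaling by trimmed means (TMM) in place of total counts adds 0.11 to every log2 ratio and brings the median of all genes to 0.019. With it 2 genes were higher and 6 lower by 1.5-fold, as Ldha, Tpi1 and Slc16a3 came under the fold, and the all-gene shares became 4.4% higher and 4.6% lower. Only Hk2 among the 34 changed sign with this scaling.

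**Figure D1:**
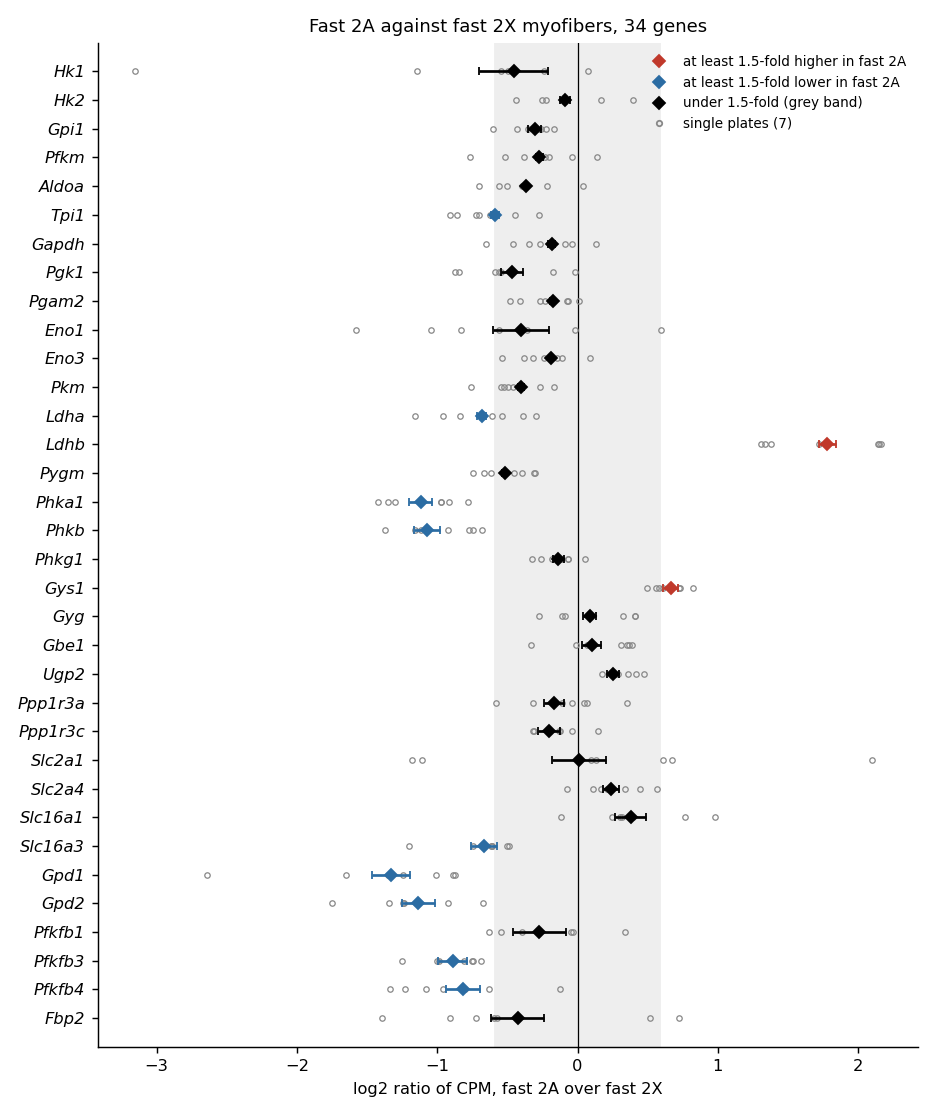
Log2 ratio of CPM, fast 2A over fast 2X, for the 34 genes with at least 500 summed counts (diamonds, with 95% counting limits) and for each of 7 plates (open circles); the grey band spans differences under 1.5-fold. Ldhb stands farthest to the right at 1.78, Gpd1, Gpd2, Phka1 and Phkb lie beyond -1, and the main glycolytic enzymes sit between -0.59 and -0.091; Hk2 alone moves to the other side of 0 with TMM scaling.

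The lactate genes showed the largest difference of the list. Ldha, on chromosome 7 from 46841475 to 46855627 (GRCm38, plus strand), was at 1339.7 CPM in fast 2X and 835 CPM in fast 2A. It ranged from 139 to 2405 CPM with a median of 1370.4 in single fast 2X cells, and from 240.0 to 1741 CPM with a median of 866 in single fast 2A cells. Only 2 of 51 fast 2A cells exceeded the fast 2X median, although the ranges overlapped. The log2 ratio was -0.68 (limits -0.71 to -0.65), or 1.604-fold lower, and -1.16 to -0.30 over the plates.

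Ldhb, on chromosome 6 from 142490249 to 142507957 (minus strand), was at 104 CPM in fast 2X and 356 CPM in fast 2A. Levels ran from 0 to 534 CPM with a median of 102 in single fast 2X cells, and from 55.4 to 824 CPM with a median of 355 in single fast 2A cells. In 50 of 51 fast 2A cells it was above the fast 2X median. The log2 ratio was 1.78 (limits 1.72 to 1.84), or 3.44-fold higher, and the plates ranged from 1.31 to 2.16. Of the Ldhb transcript stretches of 66 bases, the read length, 14.8% also occur in 1 other gene, Gm5514, while 3.98% of those of Ldha occur elsewhere.

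Put together, Ldhb made up 7.19% of Ldha and Ldhb counts in fast 2X (limits 6.97 to 7.402) and 29.9% in fast 2A (limits 29.2 to 30.7). Each count stands for 1 molecule whatever the gene's length, so shares per kilobase of exon, here and below, are given only as an alternative. For Ldhb they were 14.03% and 47.4%. Single fast 2X cells held shares from 0 to 33.3% with a median of 8.05%, and single fast 2A cells from 14.6 to 62.8% with a median of 27.1%. Shares of at least 20% occurred in 7 of 117 fast 2X cells and 42 of 51 fast 2A cells. The 2 classes overlapped, with 17 fast 2X cells above the lowest fast 2A cell. Within each of the 8 plates the fast 2A share was higher, by 16.5 to 27.1 percentage points.

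Lactate leaves or enters the fibre through monocarboxylate transporters, of which MCT4, encoded by Slc16a3, is known for export from glycolytic fibres and MCT1, encoded by Slc16a1, for uptake into oxidative ones. Slc16a3 was at 158 CPM in fast 2X and 99.4 CPM in fast 2A, with a log2 ratio of -0.67 (limits -0.76 to -0.58). Its level varied from 0 to 352 CPM with a median of 157 in single fast 2X cells, and from 27.02 to 276 CPM with a median of 96.2 in single fast 2A cells. Only 5 of 51 fast 2A cells exceeded the fast 2X median. All 7 plates had it lower in fast 2A, at -1.20 to -0.49, but without plate 705 or without lane 1 it came under 1.5-fold.

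Slc16a1 went the other way at 58.04 CPM in fast 2X and 75.4 CPM in fast 2A, a log2 ratio of 0.38 (limits 0.26 to 0.49) that was under 1.5-fold, but 0.60 with each cell thinned to 28827 counts. Values spanned the range from 0 to 188 CPM with a median of 47.4 in single fast 2X cells, and from 10.8 to 302 CPM with a median of 69.8 in single fast 2A cells. Above the fast 2X median lay 40 of 51 fast 2A cells, and the sign held in 6 of 7 plates. As a share of both transporters' counts, Slc16a1 was 26.9% in fast 2X (limits 25.9 to 27.8) and 43.1% in fast 2A (limits 40.99 to 45.3). The Slc16a1 share per kilobase was 30.6% and 47.7%. The difference was 9.18 to 31.7 percentage points within the 8 plates, although single cells overlapped widely, from 0 to 66.7% in fast 2X and from 6.67 to 91.7% in fast 2A.

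**Figure D2:**
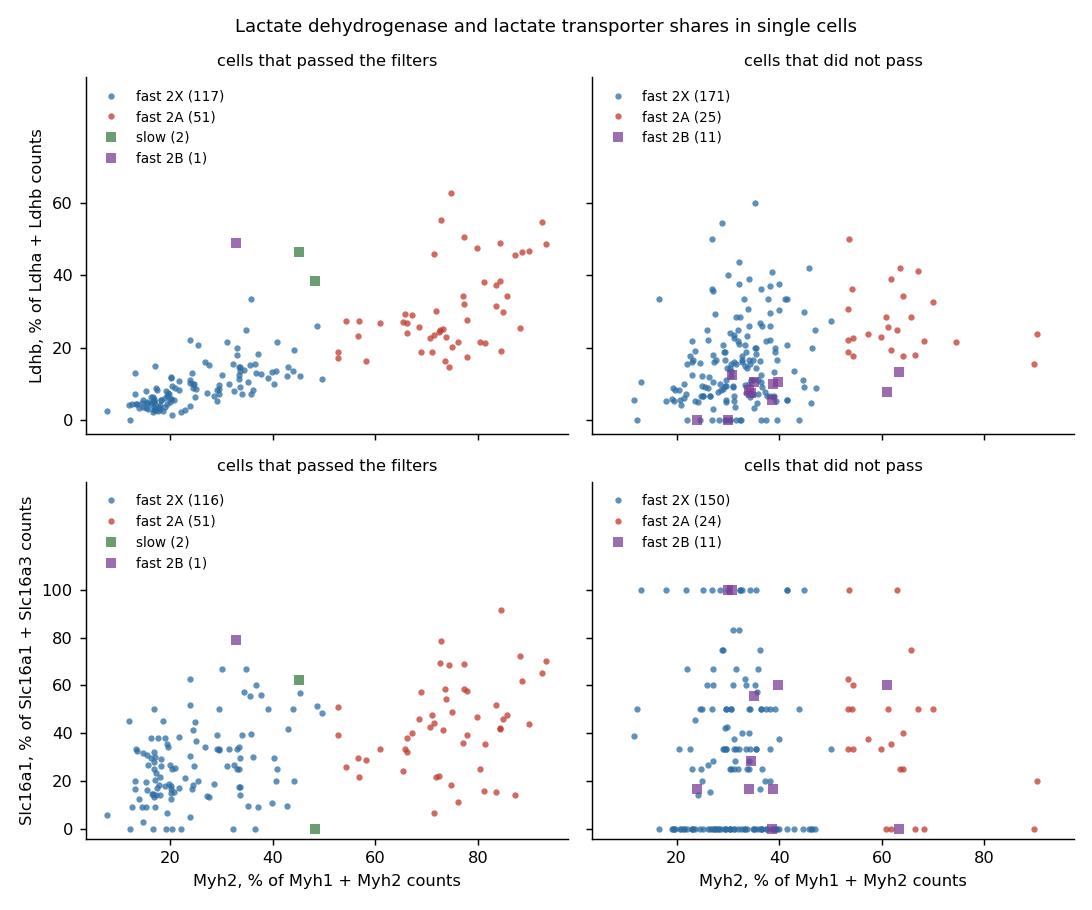
Ldhb share of Ldha and Ldhb counts (top) and Slc16a1 share of Slc16a1 and Slc16a3 counts (bottom) in single cells, in percent, against the Myh2 share of Myh1 and Myh2 counts, in percent, for the cells that passed the filters (left) and those that did not (right). In cells that passed, the Ldhb share climbs from near 5.02% to 38.3% with the Myh2 share, while the slow and fast 2B cells lie above cells of the same Myh2 share.

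The upstream sequences of these genes and of Gys1 are shown because the members of both pairs differed in opposite directions. RefSeq holds 54 start sites for 37 of the 39 genes (GRCm38.p6), with Slc2a4 and Gpd1 unmatched, and the 250 bases before a start are given 5′ to 3′ on the gene's strand. Capitals mark ACGTG on either strand, the core of hypoxia response elements, so that the palindrome CACGTG counts as 2 matches and is also a match of CANNTG. The windows are chr7:46845554-46845803 (+) for Ldha, the first of 2 entries, chr6:142507958-142508207 (-) for Ldhb, chr11:120948817-120949066 (+) for Slc16a3, chr3:104638414-104638663 (+) for Slc16a1 and chr7:45434589-45434838 (+) for Gys1.
Ldha: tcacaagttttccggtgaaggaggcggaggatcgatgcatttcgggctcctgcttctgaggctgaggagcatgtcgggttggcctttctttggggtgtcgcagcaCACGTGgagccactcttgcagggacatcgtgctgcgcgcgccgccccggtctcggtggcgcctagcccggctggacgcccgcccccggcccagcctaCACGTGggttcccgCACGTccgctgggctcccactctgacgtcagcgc
Ldhb: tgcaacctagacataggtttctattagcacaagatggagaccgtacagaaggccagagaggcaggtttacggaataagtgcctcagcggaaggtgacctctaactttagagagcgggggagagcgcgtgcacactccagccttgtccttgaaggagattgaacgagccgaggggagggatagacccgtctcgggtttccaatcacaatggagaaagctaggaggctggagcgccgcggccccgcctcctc
Slc16a3: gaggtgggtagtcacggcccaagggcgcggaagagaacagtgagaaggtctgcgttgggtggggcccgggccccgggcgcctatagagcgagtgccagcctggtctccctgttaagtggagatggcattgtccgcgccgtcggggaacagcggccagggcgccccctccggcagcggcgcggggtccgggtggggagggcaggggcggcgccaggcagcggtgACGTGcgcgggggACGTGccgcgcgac
Slc16a1: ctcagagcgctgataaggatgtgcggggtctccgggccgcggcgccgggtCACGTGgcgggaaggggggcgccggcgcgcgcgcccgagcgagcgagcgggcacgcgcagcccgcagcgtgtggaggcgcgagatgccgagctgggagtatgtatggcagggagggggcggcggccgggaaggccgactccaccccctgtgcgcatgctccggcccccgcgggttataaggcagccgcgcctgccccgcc
Gys1: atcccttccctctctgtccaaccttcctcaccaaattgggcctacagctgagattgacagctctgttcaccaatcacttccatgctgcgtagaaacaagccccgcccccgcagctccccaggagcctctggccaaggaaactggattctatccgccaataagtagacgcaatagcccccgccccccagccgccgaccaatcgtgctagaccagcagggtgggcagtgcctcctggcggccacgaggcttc

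The Ldha window shown held 5 matches of ACGTG and that of its other entry 0, the Slc16a3 and Slc16a1 windows 2 each, and the Ldhb and Gys1 windows 0. Over the whole list, 37.0% of the 54 windows held ACGTG, compared with 16.6% of all 32851 windows of the same length. Some of the 54 windows overlap and hold the same match, as for Aldoa. The windows compared were not matched for GC content, here or for the motifs below. Of the genes at least 1.5-fold lower in fast 2A, 4 of the 8 with an entry had a window with ACGTG, compared with 17 of all 37 genes with an entry. Other motifs searched on both strands were CANNTG (68.5% of the list's windows and 66.2% of all), GGGCGG (48.1% and 32.7%; 8 of the 8 lower genes and 22 of the 37), GGAAA (48.1% and 55.6%) and AAGGTCA (3.70% and 4.08%). A match describes the letters of the window and not a bound site.

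Both glucose transporter genes differed by less than 1.5-fold between the classes. Slc2a4, the insulin-responsive transporter GLUT4, was at 242 CPM in fast 2X and 286 CPM in fast 2A, a log2 ratio of 0.24 (limits 0.18 to 0.30). Cell by cell it went from 8.04 to 753 CPM with a median of 241 in single fast 2X cells, and from 92.3 to 579 CPM with a median of 286 in single fast 2A cells. Slc2a1, the widely expressed GLUT1, had a log2 ratio of 0.011 (limits -0.19 to 0.20) at 23.8 CPM in fast 2X and 24.02 CPM in fast 2A, and its sign turned with the plate, the lane and the way cells were averaged. It ranged from 0 to 359 CPM with a median of 12.1 in single fast 2X cells, and from 0 to 75.8 CPM with a median of 10.4 in single fast 2A cells. Slc2a1 was 8.98% of both transporters' counts in fast 2X and 7.76% in fast 2A.

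Hexokinase was nearly all Hk2, the muscle form, with Hk1 at 2.92% of the counts of both in fast 2X and 2.29% in fast 2A. Hk2 was at 650 CPM in fast 2X and 610.5 CPM in fast 2A, ranging from 102 to 1598 CPM with a median of 504 in single fast 2X cells, and from 277 to 1126 CPM with a median of 548 in single fast 2A cells. Its log2 ratio of -0.091 (limits -0.13 to -0.053) turned positive with TMM scaling. Hk1, the form of most tissues, was at 19.5 CPM in fast 2X and 14.3 CPM in fast 2A, ranging from 0 to 241 CPM with a median of 11.4 in single fast 2X cells, and from 0 to 68.5 CPM with a median of 9.01 in single fast 2A cells. The Hk1 log2 ratio of -0.45 (limits -0.70 to -0.21) rested on the second lane, with -1.35 there against -0.13 for the first. In the 58 fast 2X cells with more counts of other cell types' markers, Hk1 was 24.8 CPM, against 14.6 CPM in the other 59, and the part of those cell types in the result was not tested.

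The main gene for each of the 10 steps from hexokinase to pyruvate kinase was lower in fast 2A, but Hk2 turned with TMM scaling. The log2 ratios ran from -0.59 to -0.091 with a median of -0.29. Of all 8741 genes, 63.1% were also below 0, with a median of -0.094. Aldoa, the muscle aldolase, held 35.5% of all counts of the list. In fast 2X the level of Aldoa was 13595 CPM, followed by the muscle enolase gene Eno3 at 4698 and the mutase gene Pgam2 at 2474. The lowest of the 10 was Pgk1 at 189 CPM.

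Tpi1, which interconverts the triose phosphates, was the only glycolytic enzyme at 1.5-fold, at 1471 CPM in fast 2X and 979 CPM in fast 2A. Levels ran from 261 to 2711 CPM with a median of 1504 in single fast 2X cells, and from 425 to 1878 CPM with a median of 1039 in single fast 2A cells. Only 5 of 51 fast 2A cells exceeded the fast 2X median. The log2 ratio of -0.59 (limits -0.62 to -0.56) was -0.91 to -0.27 over the plates, but it stood at the threshold and came under 1.5-fold in 13 of 20 alternatives.

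The other steps differed less. Pgk1, the first ATP-making enzyme, had a log2 ratio of -0.47 and Pkm, pyruvate kinase, -0.41, both lower in all 7 plates. Gpi1, which makes fructose phosphate, was at -0.31, also lower in all 7. Aldoa was at -0.37, Pfkm, the muscle phosphofructokinase and main control point, at -0.27, Eno3 at -0.19, Gapdh at -0.18 and Pgam2 at -0.18, each lower in 6 of 7 plates. For these 5 genes the plate that differed was plate 709. Stretches of 66 bases shared with other genes made up 53.2% of Pgk1, 23.3% of Gapdh, with 141 other genes, and 20.5% of Pkm, so their counts could be split with near-identical copies.

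Each step had 1 dominant gene in both classes. Aldoa ranged from 2617 to 21046 CPM with a median of 13754 in single fast 2X cells, and from 4117 to 16404 CPM with a median of 11396 in single fast 2A cells. Its relative Aldoc had 5 counts in fast 2X and 1 in fast 2A. Pfkm ranged from 199 to 4213 CPM with a median of 2014 in single fast 2X cells, and from 609 to 3271 CPM with a median of 1670.2 in single fast 2A cells. Pfkl and Pfkp, the liver and platelet forms, made up 0.346% and 0.428% of phosphofructokinase counts in fast 2X and 0.377% and 0.319% in fast 2A.

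Pgam2 ranged from 533 to 5108 CPM with a median of 2454 in single fast 2X cells, and from 905 to 3730.4 CPM with a median of 2209 in single fast 2A cells. Pgam1 was 0.0804% of mutase counts in fast 2X and 0.123% in fast 2A. Eno3 ranged from 773 to 8299 CPM with a median of 4936 in single fast 2X cells, and from 1329 to 7608 CPM with a median of 4259 in single fast 2A cells. Eno1, the enolase of most tissues, ranged from 0 to 124 CPM with a median of 23.2 in single fast 2X cells, and from 0 to 90.3 CPM with a median of 17.96 in single fast 2A cells. It was 0.587% of enolase counts in fast 2X and 0.508% in fast 2A, and 24.0% of its 66-base stretches are shared, mostly with Eno1b. No minor form of these steps exceeded 1% of its step's counts in either class, and per kilobase none exceeded 0.1904%.

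These minor forms were high in few cells. Pfkl ranged from 0 to 73.6 CPM with a median of 1.18 in single fast 2X cells, and from 0 to 67.99 CPM with a median of 0 in single fast 2A cells. Pfkp ranged from 0 to 178 CPM with a median of 3.08 in single fast 2X cells, and from 0 to 135 CPM with a median of 2.18 in single fast 2A cells. For Pfkp the fast 2X cells with more counts of other cell types' markers held 12.8 CPM, against 3.81 CPM in the rest. Pgam1 ranged from 0 to 54.4 CPM with a median of 0 in single fast 2X cells, and from 0 to 21.6 CPM with a median of 0 in single fast 2A cells. Aldoc reached 4.24 CPM in a fast 2X cell and 2.46 CPM in a fast 2A cell, with medians of 0.

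**Figure D3:**
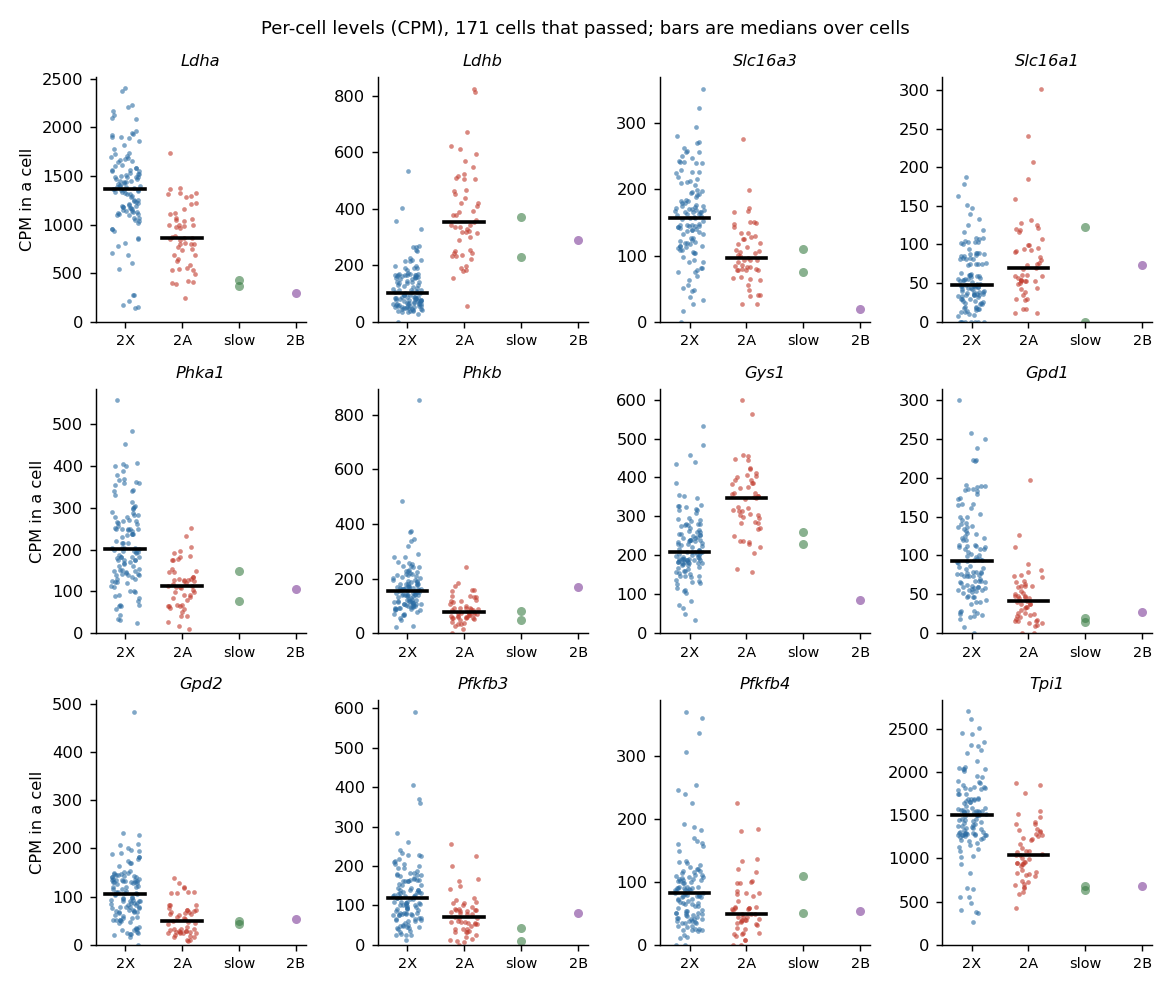
Level in CPM of 12 genes in each of the 171 cells, by fibre class (2X, 117 cells; 2A, 51; slow, 2; 2B, 1), with bars at the medians of the fast 2X and fast 2A cells; axes start at 0. Ldhb and Gys1 are higher in most fast 2A cells, Slc16a1 in 40 of 51, and the other 9 genes have lower fast 2A medians with overlapping ranges.

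A fructose bisphosphate that is the main activator of phosphofructokinase is made and removed by the Pfkfb enzymes, and Pfkfb3 and Pfkfb4 were both lower in fast 2A. Pfkfb3 was at 140.4 CPM in fast 2X and 75.8 CPM in fast 2A, a log2 ratio of -0.89 (limits -0.99 to -0.79) and -1.25 to -0.69 over the plates. Its level varied from 12.1 to 591 CPM with a median of 119 in single fast 2X cells, and from 0 to 256 CPM with a median of 71.01 in single fast 2A cells. Only 7 of 51 fast 2A cells exceeded the fast 2X median. When the cells with more counts of other cell types' markers were left out, a choice made after seeing the data, its log2 ratio became -0.49.

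Pfkfb4 was at 99.5 CPM in fast 2X and 56.6 CPM in fast 2A, a log2 ratio of -0.81 (limits -0.93 to -0.70) and -1.34 to -0.12 over the plates. Values spanned the range from 0 to 371 CPM with a median of 82.3 in single fast 2X cells, and from 0 to 226 CPM with a median of 49.8 in single fast 2A cells. With each cell thinned to 28827 counts the log2 ratio was -0.48. Pfkfb1, the form known from liver and muscle, had a log2 ratio of -0.27 (limits -0.46 to -0.085) and ranged from 0 to 128 CPM with a median of 20.01 in single fast 2X cells, and from 0 to 166 CPM with a median of 15.9 in single fast 2A cells.

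The shares of the Pfkfb genes differed less between the classes than those of the lactate genes. Pfkfb3 held 52.1% of their counts in fast 2X and 48.3% in fast 2A, Pfkfb4 36.96% and 36.1%, and Pfkfb1 10.9% and 15.5%. Per kilobase, the Pfkfb3 shares were 40.1% and 36.2% and the Pfkfb4 shares 44.1% and 41.9%. Fbp2, the muscle fructose bisphosphatase that acts against glycolysis, was at 31.4 CPM in fast 2X and 23.4 CPM in fast 2A, with a log2 ratio of -0.42 (limits -0.62 to -0.24) and -1.39 to 0.72 over the plates.

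By pooled counts, regulatory subunits of phosphorylase kinase, the enzyme that switches glycogen breakdown on, were more than 2-fold lower in fast 2A. The catalytic subunit was not. Phka1, the muscle alpha subunit on chromosome X from 102513975 to 102644246, was at 256 CPM in fast 2X and 118 CPM in fast 2A. Cell by cell it went from 25.4 to 558 CPM with a median of 201 in single fast 2X cells, and from 9.85 to 253 CPM with a median of 114 in single fast 2A cells. Only 3 of 51 fast 2A cells exceeded the fast 2X median. The log2 ratio was -1.12 (limits -1.20 to -1.04), and -1.42 to -0.78 over the plates.

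Phkb, the beta subunit on chromosome 8 from 85840959 to 86061376, was at 185 CPM in fast 2X and 87.9 CPM in fast 2A, a log2 ratio of -1.07 (limits -1.17 to -0.98) and -1.37 to -0.68 over the plates. It ranged from 22.8 to 853 CPM with a median of 155 in single fast 2X cells, and from 0 to 241 CPM with a median of 77.7 in single fast 2A cells, and 6 of 51 fast 2A cells exceeded the fast 2X median. Phkg1, the catalytic gamma subunit of muscle, was at 586 CPM in fast 2X and 533 CPM in fast 2A, a log2 ratio of only -0.14 (limits -0.18 to -0.10). The annotated span of Phkg1 overlaps Chchd2 on the same strand, for which no count was available. It also overlaps Sumf2 on the opposite strand, which had 800 counts in the 171 cells against 29661 for Phkg1. The part of these genes in the Phkg1 value was not tested. Phka1 and Phkb kept their sign and stayed past 1.5-fold in all 20 alternatives.

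Pygm, the muscle glycogen phosphorylase itself, was at 3619 CPM in fast 2X and 2529 CPM in fast 2A, a log2 ratio of -0.52 (limits -0.54 to -0.50) that was negative in all 7 plates and under 1.5-fold. Levels ran from 615 to 5378 CPM with a median of 3657 in single fast 2X cells, and from 923 to 3785 CPM with a median of 2677 in single fast 2A cells. Only 3 of 51 fast 2A cells exceeded the fast 2X median. Pygb, the brain form, was 0.172% of phosphorylase counts in fast 2X and 0.179% in fast 2A, and ranged from 0 to 152 CPM with a median of 1.78 in single fast 2X cells, and from 0 to 32.5 CPM with a median of 0 in single fast 2A cells.

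Of the 6 genes of glycogen synthesis, 1 was higher in fast 2A and 0 were lower by 1.5-fold. Of the 4 breakdown genes with enough counts, 0 were higher and 2 lower. Over all genes 2.57% were higher and 7.44% lower, and these groups are too small to be compared by such counts. Gys1, muscle glycogen synthase on chromosome 7 from 45434844 to 45456619, was at 206 CPM in fast 2X and 327 CPM in fast 2A. Its level varied from 34.7 to 533 CPM with a median of 209 in single fast 2X cells, and from 158 to 599.7 CPM with a median of 347 in single fast 2A cells. In 48 of 51 fast 2A cells it was above the fast 2X median. The log2 ratio was 0.66 (limits 0.61 to 0.72), or 1.58-fold higher, and 0.50 to 0.82 over the plates, while lane 2 alone gave 0.58. Gys1 overlaps Ruvbl2 on the opposite strand, which had 356 counts in the 171 cells against 12155 for Gys1, and the use of strand in counting was not stated.

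The other synthesis genes stayed within 1.5-fold. Ugp2, which makes the glucose donor, had a log2 ratio of 0.25 and was higher in all 7 plates. Gyg, the primer protein glycogenin, was at 0.086 and Gbe1, the branching enzyme, at 0.10, with plates on both sides of 0. Ppp1r3a and Ppp1r3c, which bring a phosphatase to glycogen, were at -0.17 and -0.20, lower in 4 and 6 of 7 plates.

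By pooled counts, both enzymes of the glycerol phosphate shuttle, which passes electrons from glycolysis to mitochondria, were more than 2-fold lower in fast 2A. Without lane 1, Gpd2 was under 2-fold at -0.92. Gpd1, the cytosolic enzyme on chromosome 15 from 99717515 to 99725005, was at 102 CPM in fast 2X and 40.6 CPM in fast 2A. Values spanned the range from 0 to 299 CPM with a median of 93.3 in single fast 2X cells, and from 0 to 197 CPM with a median of 41.1 in single fast 2A cells. Only 3 of 51 fast 2A cells exceeded the fast 2X median. The log2 ratio of -1.33 (limits -1.47 to -1.19) was -2.64 to -0.87 over the plates and the lowest of the 34.

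Gpd2, the mitochondrial enzyme on chromosome 2 from 57237635 to 57370719, was at 120.3 CPM in fast 2X and 54.8 CPM in fast 2A, a log2 ratio of -1.13 (limits -1.25 to -1.01) and -1.75 to -0.68 over the plates. Cell by cell it went from 0 to 483 CPM with a median of 106 in single fast 2X cells, and from 8.57 to 138 CPM with a median of 49.4 in single fast 2A cells, with 8 of 51 fast 2A cells above the fast 2X median. With both lower, Gpd2 was 54.1% of the counts of the pair in fast 2X and 57.4% in fast 2A, or 34.8% and 37.9% per kilobase.

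Many fibres held both Myh1 and Myh2, so the genes were also followed along the Myh2 share of Myh1 and Myh2 counts in steps of 20 percentage points, with 48, 60, 18, 29 and 16 cells, the slow and fast 2B cells included. The class contrast and this ordering use the same cells and the same Myh counts, so this is a description of shape. The Ldhb share was 5.02%, 10.1%, 19.1%, 28.0% and 38.3% from the lowest to the highest step. In steps of 10 points it reached 54.0% in the 2 cells above 90%. Gpd1 was 115, 88.3, 44.7, 49.1 and 24.96 CPM over the 5 steps, and Phka1 was 303, 195, 146, 129 and 102 CPM. Depth differed along the steps, with 21875182 counts over the 48 cells of the lowest and 15644558 over the 60 of the next. Over the fast 2X cells, Spearman's rho between level and a cell's counts was 0.45 for Phka1, 0.37 for Gpd2, 0.11 for Gpd1 and -0.13 for Ldhb. The part of depth in these steps was not tested.

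Higher at every step were 3 of the 34 genes, Ldhb, Gys1 and Slc16a1. Lower at every step were 8, Pkm, Ldha, Pygm, Phka1, Ppp1r3c, Slc16a3, Gpd2 and Pfkfb3. How many of all 8741 genes rose or fell at every step was not counted, so these numbers have no background to be set against. Between the highest and the lowest step the log2 ratio was 2.32 for Ldhb, 0.78 for Gys1 and 0.65 for Slc16a1, and it was -2.21 for Gpd1, -1.71 for Gpd2 and -1.58 for Phka1. Gys1 was 198, 210.4, 269, 327 and 340.3 CPM, and the Slc16a1 share was 24.6%, 29.4%, 38.0%, 41.4% and 50.1%.

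**Figure D4:**
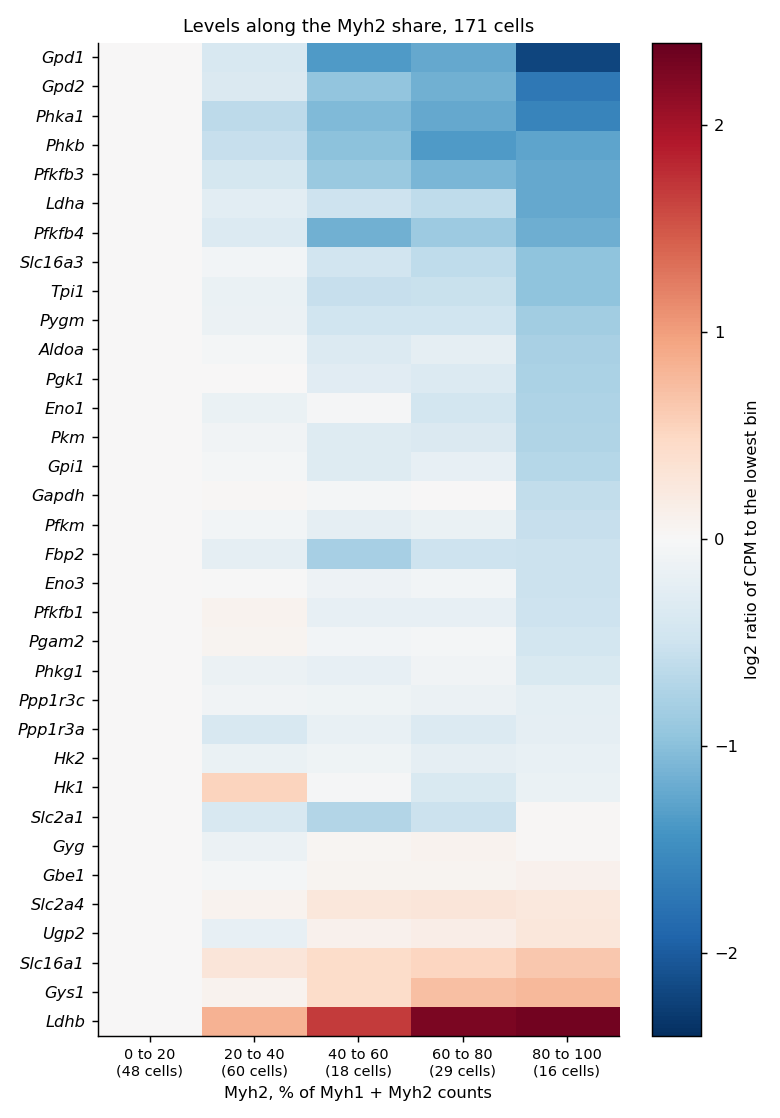
Log2 ratio of CPM to the lowest step (0 to 20%) for 34 genes over 5 steps of the Myh2 share of Myh1 and Myh2 counts, in percent, with the number of cells under each step; red is higher and blue lower. Ldhb deepens to 2.32 at the right edge and Gpd1 to -2.21, and most glycolytic enzymes differ most in the last step of 16 cells.

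Within a class the same relation was seen over cells. Spearman's rho between the Ldhb share and the Myh2 share was 0.87 over the 171 cells, 0.73 within the 117 fast 2X cells and 0.47 within the 51 fast 2A cells. For the Slc16a1 share it was 0.47 over 170 cells, 0.31 within fast 2X and 0.32 within fast 2A. Both values of a cell come from the same library and depth, and cells are not independent samples. Between pairs of the 34 genes, rho over the 117 fast 2X cells ran from -0.40 for Ldhb and Phka1 to 0.79 for Aldoa and Eno3, with -0.37 for Hk1 and Eno3.

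The 3 fibres of other classes are single observations. Of their 5 myosin genes' counts, the slow cells held 76.1% and 77.3% Myh7 and the fast 2B cell 53.5% Myh4. The Ldhb share was 46.6% (limits 41.5 to 51.7) and 38.3% (limits 26.1 to 51.8) in the slow cells and 49.0% (limits 40.8 to 57.3) in the fast 2B cell, against 29.9% in the fast 2A class, which lies within the limits of the second slow cell. Slc16a1 was 59 of 95 transporter counts in the first slow cell and 0 of 11 in the second, which allows up to 28.5%. Gpd1 was 14.6 and 19.9 CPM in the slow cells, under both fast medians. Ldha was 426 and 368 CPM there.

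The fast 2B cell stood apart in several genes. Slc2a1 made up 74 of its 105 glucose transporter counts, or 70.5% (limits 60.8 to 79.0), Hk1 17.8% of hexokinase counts and Pfkp 7.85% of phosphofructokinase counts. Its Ldha level was 299.6 CPM and its Gys1 level 85.6 CPM, both under the slow cells. Markers of other cell types summed to 3373 CPM in this cell, against medians of 278 CPM in fast 2X and 304 CPM in fast 2A, with 2089 CPM from fibroblast markers and 607 CPM from Schwann cell markers. Myofiber markers summed to 31795 CPM in it, against medians of 101579 CPM in fast 2X (lowest cell 19698) and 107804 CPM in fast 2A (lowest cell 26052). The part of these differences in its values was not tested.

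Summed, the 39 genes made up 3.79% of all counts in fast 2X (limits 3.79 to 3.80), 3.06% in fast 2A (limits 3.05 to 3.07), 2.17% in the slow cells and 1.45% in the fast 2B cell. Single cells ranged from 0.771 to 5.35% in fast 2X, with a median of 3.93%, and from 1.20 to 4.502% in fast 2A, with a median of 3.25%. The difference was -1.55 to -0.037 percentage points within the 7 plates, so its size varied with the plate. In such a share, fewer transcripts of these genes and more of other genes cannot be told apart.

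From a wider list of 57 genes of the same pathways, 56 had a row and 25 reached 500 counts. Of these 25, 0 were at least 1.5-fold higher in fast 2A and 6 were lower, with a median log2 ratio of -0.070. Of all 8741 genes, 2.57% were higher and 7.44% lower, with a median of -0.094. Pdp1, a phosphatase that activates pyruvate dehydrogenase, was at 99.1 CPM in fast 2X and 28.6 CPM in fast 2A, a log2 ratio of -1.79. Pgm1, which links glycogen to glycolysis, was at 619.7 CPM in fast 2X and 349 CPM in fast 2A, a log2 ratio of -0.83. Bpgm, the bisphosphoglycerate mutase, had -1.05, Tigar, a fructose bisphosphatase, -0.67, Gpd1l, a relative of Gpd1, -0.64 and Pgm2l1, a relative of Pgm1, -0.60.

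Further genes of the wider list, chosen after their values were seen, were within 1.5-fold. Pdha1, a subunit of pyruvate dehydrogenase, was at 0.48, Dlat, its acetyltransferase, at 0.36, Mpc1, of the pyruvate carrier, at 0.36 and the kinase gene Pdk4 at 0.32, each higher in all 7 plates. Mpc2, the other subunit of the carrier, was at -0.097 and lower in 4 of 7. The lysosomal glucosidase gene Gaa was at -0.54 and Bsg, the partner of the lactate transporters, at -0.47, both lower in all 7.

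Cells that did not pass the filters but held at least 100 myosin counts, 207 in all, were also described. Their median mitochondrial share was 48.5%, and they comprised 171 fast 2X, 25 fast 2A and 11 fast 2B cells. The classes were not alike in other ways. Cut fragments were 37 of the fast 2X, 3 of the fast 2A and 10 of the fast 2B cells. Lane 1 held 91 of the fast 2X and 19 of the fast 2A cells, and median mitochondrial shares were 49.8% and 35.3%. The part of these differences in the values below was not tested. The Ldhb share was 14.2% in fast 2X (limits 13.2 to 15.2) and 25.7% in fast 2A (limits 22.6 to 29.0), a smaller gap than in the cells that passed. Most of them, 154, lay between 20 and 40% Myh2 share, and the Spearman's rho with that share was 0.36 for Ldhb and 0.053 for Slc16a1.

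Of the genes past 1.5-fold above, the log2 ratio in these cells, per count outside mitochondrial genes, was 0.73 (limits 0.50 to 0.97) for Ldhb and 0.56 (limits 0.33 to 0.78) for Gys1. It was -0.60 (limits -0.96 to -0.26) for Phka1, -0.59 (limits -0.94 to -0.25) for Pfkfb3, -0.45 (limits -0.81 to -0.11) for Phkb and -0.33 (limits -0.46 to -0.20) for Ldha. The limits spanned 0 for Tpi1 at -0.090 (limits -0.20 to 0.019), Slc16a3 at -0.050 (limits -0.44 to 0.32), Gpd1 at -0.41 (limits -0.90 to 0.056), Gpd2 at -0.11 (limits -0.47 to 0.24) and Pfkfb4 at -0.23 (limits -0.67 to 0.18), which had 43 to 793 counts in the fast 2A cells.

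Fibre class markers went with the class. The fast 2X marker list summed to 21429 CPM in fast 2X and 6070 CPM in fast 2A, and the fast 2A list to 5606 and 16419 CPM. Both lists include the Myh genes that set the class. In the fast 2A list, log2 ratios were 3.51 for Tnnt1, 2.90 for Myl3, 2.15 for Tnni1, 1.39 for Myh2 and 0.74 for Actn2. The study found slow as well as fast fibres in the cluster it defined by high Tnnt1. The list is therefore no separate check of a fast 2A identity, and slow content in the fast 2A cells was not tested. Endothelial markers summed to 168 CPM in fast 2X (cells 14.3 to 2374) and 151 CPM in fast 2A (cells 0 to 831), smooth muscle markers to 88.9 (0 to 10458) and 79.7 (5.34 to 591), and red blood cell markers to 21.2 (0 to 787) and 8.06 (0 to 239). Schwann cell markers summed to 23.9 CPM in fast 2X and 13.7 CPM in fast 2A, and satellite cell markers to 10.1 and 12.8 CPM. Fibroblast markers were at 46.1 and 46.6 CPM, immune markers at 14.6 and 14.2 CPM and adipocyte markers at 3.22 and 4.37 CPM. None of the marker genes of these lists was at 0 over the cells. Their part in the results was not tested. With the cells above the median of these markers left out, 25 fast 2A and 61 fast 2X cells gave 2 genes higher and 9 lower. Slc16a3 and Pfkfb3 were no longer among them, so these 9 held genes that were not past 1.5-fold in the main comparison. The share of all genes past 1.5-fold was not counted in this setting.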

How the data were processed

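Reads of 66 bases were mapped by the authors to GRCm38 with spike-in sequences using STAR 2.5.4b within zUMIs and counted with featureCounts. The deposited table, whose other content is a description of each cell, holds raw UMI counts per gene and cell, and per the file headers also each cell's plate, lane and percent of mitochondrial UMIs. Cells were filtered and grouped as described above with Python 3.11.15, pandas 2.3.3 and scipy 1.17.1. Class levels are summed counts scaled to CPM. Log2 ratios have exact conditional binomial limits and shares exact Clopper-Pearson limits. Genes with at least 500 counts over the 171 cells were compared, without the 5 Myh genes. No test was run, since no replicates were given. All 39 genes are accounted for, and members of gene pairs and genes past 1.5-fold are described by cell. Genes of the wider list are named where past 1.5-fold, and the further ones were chosen after their values were seen. The genes and lists were chosen with earlier results of these data known. Transcript stretches come from GENCODE M21. Doublets were not sought, since cells were placed singly into wells. Scripts were tested on simulated data. Alternatives were other scalings, averages, filters, class limits, depths, plates, lanes and marker levels.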

Additional observations from a re-analysis of the deposited data

How the results depend on the processing

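Of the 34 genes, 31 kept their sign in all 20 alternatives, the exceptions being Hk2, Slc2a1 and Pfkfb1. The 11 genes past 1.5-fold kept theirs, and 5 of them (Ldhb, Phka1, Phkb, Gpd1 and Gpd2) stayed past 1.5-fold throughout. The alternatives reuse most of the cells by which these genes were picked. The number of genes higher in fast 2A was 1 to 2 and the number lower 8 to 10 when a lane or a plate was left out. The lower figure of 1 came without lane 1, where Gys1 had a log2 ratio of 0.58. The shares of all genes past 1.5-fold were not counted in these settings. At 2-fold, the main comparison had 1 gene higher and 4 lower, of which Phka1, Phkb and Gpd2 came under 2-fold in some alternatives. The Ldhb share difference of 22.7 percentage points was 19.1 from medians over cells, 11.5 in cells that did not pass and 21.9 to 23.4 with a lane or plate left out. Its difference of 33.3 points between the highest and lowest steps of the Myh2 share was 51.6 with steps of 10 points, which set 2 cells against 1, and 14.3 in cells that did not pass, where the highest step held 2 cells with 34 Ldha and Ldhb counts and the step before it, of 16 cells, had a share of 26.1%. The cause of these shifts was not tested. Leaving out cells above the median of other cell types' markers was chosen after seeing the data. No test paired by plate was run because cells are not replicates, and the differences between the classes within each plate and lane are given as values. Depth limits the minor forms: Pfkl, Pfkp, Aldoc, Pgam1 and Pygb had 6 to 409 counts in 171 cells.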
